A study of Mus musculus with 2 samples.

Results

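Mir149 is a microRNA gene in the first intron of Gpc1 on mouse chromosome 1, and it was 1 of the 2202 microRNA genes counted. It was chosen by its read counts in these same libraries, where it is abundant and unequal between animals, so its level and its ratio are described here without a test. The samples were total RNA from the left cerebral cortex of female mice of strain B6CASTF1/J, the first-generation hybrid of C57BL/6J and CAST/EiJ, aged 10 days. The labels give 1 group of 2 biological replicates, called animal 1 and animal 2, with no treatment and no engineered allele. They number the females differently, yet both carry the same donor entry. The libraries hold RNA shorter than 30 bases, and the counts are not split by parental allele. Animal 1 had 3806078 reads counted to microRNA genes, and animal 2 had 2602935.

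A microRNA is cut from a hairpin in a longer transcript, first in the nucleus by Drosha and then in the cytoplasm by Dicer, and an arm of the hairpin guides Argonaute to messenger RNAs. Bases 2 to 8 of the arm, the seed, do most of the pairing with targets. An intronic microRNA on the strand of its host is usually made from the host's own transcript. Gpc1 encodes glypican-1, a heparan sulfate proteoglycan held on the cell surface by a lipid anchor, which binds growth factors and guidance molecules and is expressed by neurons of the developing brain. The 3′ arm of the human counterpart has been described as a repressor of AKT1 and E2F1 in tumour cells.

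The sequences below show the hairpin that the counts refer to and the seeds by which Mir149 can be compared with other microRNAs. They are RNA sequences of RefSeq on GRCm38, the assembly that mm10 names, written 5′ to 3′. In the hairpin, at chr1:92850378-92850443 on the plus strand, capitals mark the mature arms. In each arm, capitals mark the seed.
mmu-mir-149 hairpin: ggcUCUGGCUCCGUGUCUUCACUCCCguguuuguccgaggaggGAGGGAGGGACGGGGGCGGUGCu
mmu-miR-149-5p: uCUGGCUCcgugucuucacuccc
mmu-miR-149-3p: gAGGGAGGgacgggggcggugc

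The 5′ arm lies at 92850381 to 92850403 and the 3′ arm at 92850421 to 92850442. The arms are 23 and 22 bases long, with 17 bases between them. The deposited tables count reads per hairpin gene, so the share of Mir149 reads that came from either arm is not known here.

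Mir149 (ENSMUSG00000065470.1) spans 66 bases, from 92850378 to 92850443 of chromosome 1 in mm10, in GENCODE release M21. Gpc1 runs along the same strand from 92831645 to 92860779, a length of 29.1 kb with 9 exons in its full-length transcript. The hairpin lies in intron 1, which is 21.2 kb long, 18.3 kb after exon 1 and 2.90 kb before exon 2. Only 1 of the 5 annotated Gpc1 transcripts spans it, and no exon of Gpc1 overlaps it. No gene of the opposite strand overlaps the hairpin, and the nearest upstream one, Gm29480, ends 1.61 kb before it.

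**Figure D1:**
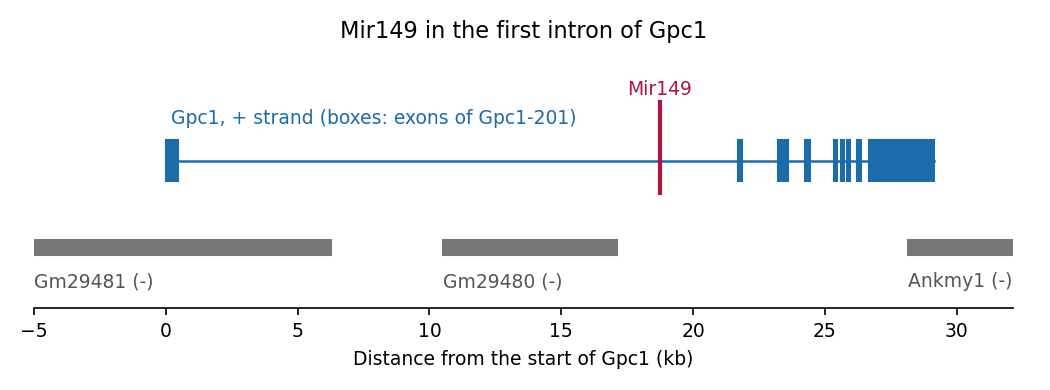
The x axis is distance from the annotated start of Gpc1 in kb; blue boxes are exons of the full-length Gpc1 transcript, grey bars are genes on the opposite strand, and the red line marks Mir149. The hairpin lies 18.7 kb from the start of Gpc1, in the long first intron, between Gm29480 and exon 2.

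Mir149 was counted with 100883 reads in animal 1 and 28838 in animal 2. All of these reads were on the gene's own strand: the opposite strand held 0 reads in either library, which allows up to 3 reads, or 0.788 and 1.15 CPM (a gene's reads per 1e6 reads counted to microRNA genes). Mir149 took 2.65% of the counted reads in animal 1 (exact Clopper-Pearson 95% interval 2.63 to 2.67) and 1.11% in animal 2 (1.10 to 1.12). The intervals cover counting error only and say nothing of the spread between animals, which rests on these 2 values. The mean was 1.88% ± 1.09 (SD, n = 2), or 18792 CPM ± 10908, and such an SD rests on 1 difference. In animal 1 about 1 in 37.7 counted reads came from Mir149, and in animal 2 about 1 in 90.3.

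By rank among all 2202 genes, Mir149 was 10th in animal 1, 19th in animal 2 and 11th by mean CPM. In animal 1 it stood between Mir126a, an endothelial microRNA, at 2.89%, and Mir99a at 2.57%. In animal 2 it stood between Mir298, of the imprinted Gnas and Nespas region, at 1.15%, and Mir30d at 0.981%. Above it by mean CPM, from the top, were Mir770, Mir487b, Mir744, Mir99a and Mirlet7e, and below it Mir99b, Mir126a, Mir433, Mir652 and Mir128-1. Mir99b, which lies beside Mirlet7e in Spaca6, had nearly the same mean (1.88% ± 0.443) from closer values, 2.19 and 1.57% in animals 1 and 2.

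The place of Mir149 in this order is loosely fixed. Its range over the animals overlapped that of 14 other genes, including 7 of the 10 neighbours named above. Mir770, Mir487b and Mir744 were above both of its values. In all, 8 genes were above both values of Mir149 in both libraries. Of the 10 neighbours, 6 were below Mir149 in animal 1 and 9 were above it in animal 2. The 25 most abundant genes included 3 with a larger coefficient of variation over the animals than the 58.0% of Mir149, and the median over the 102 genes of at least 1000 mean CPM was 13.6%. The order covers only reads counted to genes. Reads that fit several positions, 42.7 and 40.4% of all reads in animals 1 and 2, stand outside it. The ranks of genes with several copies are therefore uncertain.

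**Figure D2:**
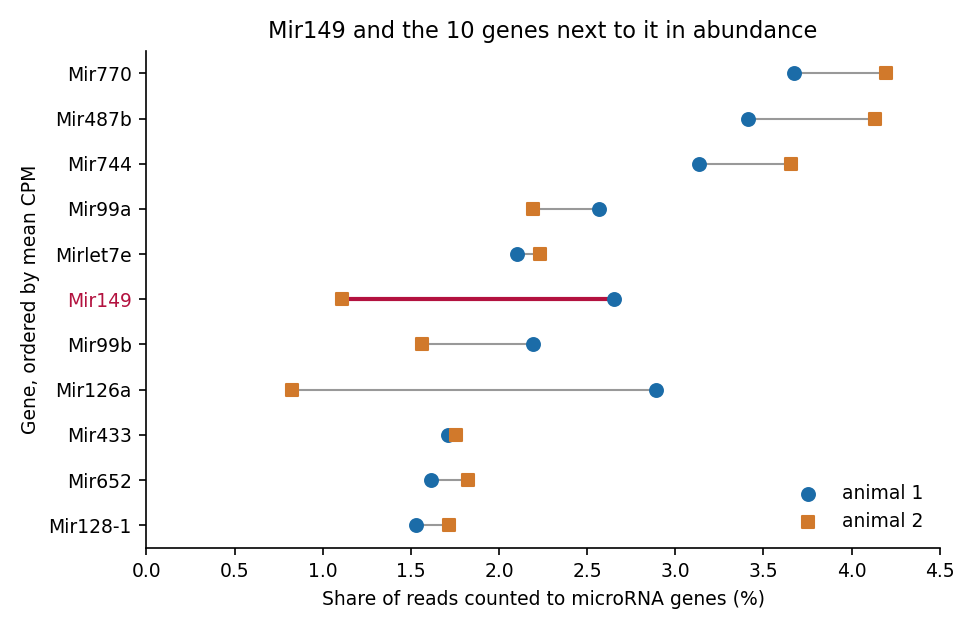
The x axis is the share of reads counted to microRNA genes in percent; each row is a gene, ordered by mean CPM, with a blue circle for animal 1 and an orange square for animal 2. Mir149 runs from 1.11 to 2.65%, a span that only Mir126a, from 0.826 to 2.89%, exceeds among the genes shown.

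The animals were next compared after scaling by the trimmed mean of M-values (TMM), which allows for a few abundant genes taking up reads. The scaled levels of Mir149 were 24704 CPM in animal 1 and 11887 in animal 2. The log2 ratio of animal 1 over animal 2 was 1.06 (exact 95% counting interval 1.04 to 1.07), a level 2.08-fold higher in animal 1. These are 2 animals of 1 group, so the ratio describes the spread between them and no condition.

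Ratios of this size were less common among abundant genes than over all genes compared. With few reads a ratio has a wide counting error, and its part in that contrast was not tested. Of the 531 genes with at least 10 reads summed over both libraries, 97 (18.3%) were at least 2-fold higher in animal 1, and 126 (23.7%) differed at least 2-fold in either direction. Among the 102 of these genes with at least 1000 mean CPM, 7 (6.86%) were at least 2-fold higher in animal 1, and Mir149 was 6th from the top. Larger ratios in that set were those of Mir195a, Mir22, Mir126a, Mir423 and Mir125a. By absolute log2 ratio Mir149 was 7th, since Mir140 (1024 and 3138 CPM in animals 1 and 2, -1.82) differed more in the other direction. These genes were chosen for naming after their values were seen. The median absolute log2 ratio in the set was 0.39. Among reads counted to genes, Mir149 was thus one of the most abundant genes of these libraries and, for that abundance, one of the least even. With upper-quartile scaling the ratio of Mir149 was 1.79-fold, below the 2-fold mark, and with library totals only it was 2.39-fold.

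**Figure D3:**
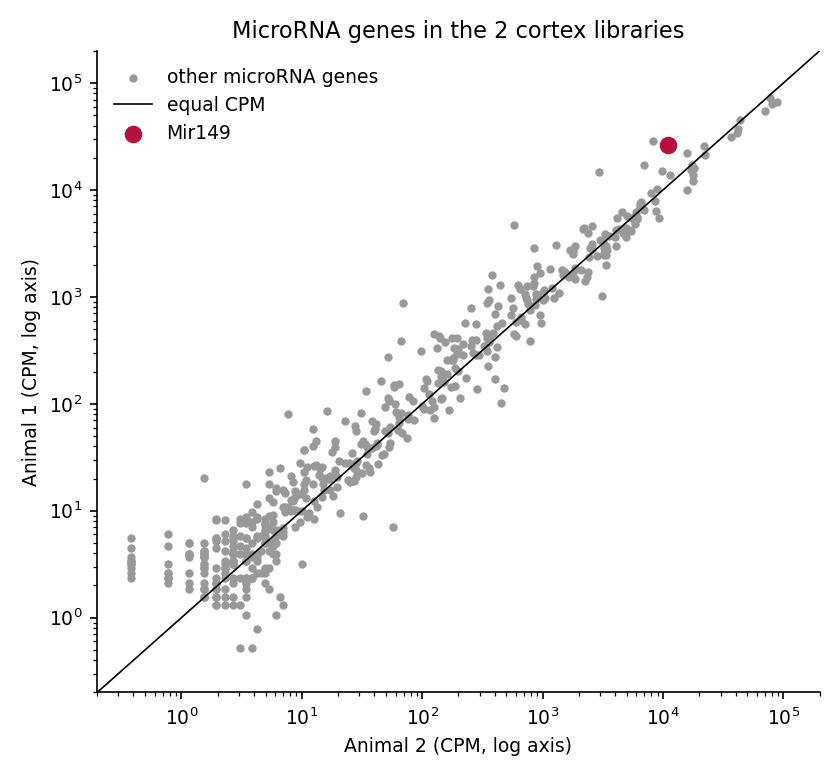
CPM in animal 2 is on the x axis and CPM in animal 1 on the y axis, both logarithmic and without TMM; each grey point is 1 of the genes with at least 10 reads summed and a read in both libraries (526 with Mir149), and the line marks equal CPM. Mir149, in red, lies above the line at 11079 and 26506 CPM, in the upper right where most points are close to the line.

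The genes of at least 1000 mean CPM whose ratio was closest to that of Mir149 were Mir666, Mir125a, Mir668, Mir323 and Mir92b, by absolute difference of log2 ratios over the 2 libraries. Mir666 had 11731 and 3363 reads in animals 1 and 2, a log2 ratio of 1.05. Mir125a had 64567 and 18211 reads, a log2 ratio of 1.07. Both lay within 0.02 of Mir149. The next were farther off, at 0.90 for Mir668, 0.80 for Mir323 and 0.80 for Mir92b. Mir666, Mir668 and Mir323 are imprinted genes of chromosome 12, between Dlk1 and Dio3, and Mir125a lies in the cluster of Mir99b and Mirlet7e on chromosome 17. With 2 libraries a pattern is a single ratio, so this likeness is a weak one.

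Mir149 stands alone on its chromosome, outside any microRNA cluster. The nearest microRNA gene on one side, Mir6900, is 386 kb away and had 36 and 54 reads in animals 1 and 2. On the other side Mir6901 is 424 kb away and had 1 and 0 reads. Of the 128 microRNA genes of chromosome 1, 20 reached 10 CPM in both libraries, and Mir149 had the highest mean. It held 48.9% of the chromosome's counted microRNA reads in animal 1 and 27.4% in animal 2. Mir128-1, a neuron-enriched microRNA in an intron of R3hdm1, came next at 1.53 and 1.71% of all counted reads. Mir26b (0.425 and 0.520%), in an intron of the phosphatase gene Ctdsp1, Mir30a (0.383 and 0.330%) and Mir181a-1 (0.120 and 0.120%) followed. The order on the chromosome changed with the animal: Mir149 was above Mir128-1 in animal 1 and below it in animal 2. Mir128-1 and Mir181a-1 have further copies elsewhere in the genome, and reads that fit several positions were not counted to genes, so their levels are uncertain.

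Mir149 is also 1 of 733 microRNA genes that lie, in sense, in an intron of a protein-coding gene and in no exon of one. These genes together held 36.8 and 38.2% of counted reads in animals 1 and 2. Mir149 ranked 5th among them by mean CPM, behind Mir139, Mirlet7g, Mir744 and Mirlet7e, and was 4th in animal 1 and 9th in animal 2. Of the intronic reads it held 7.21% in animal 1 and 2.90% in animal 2. Of the 33 intronic genes with at least 1000 mean CPM, 7 had a ratio above 0 after TMM, 12 with library totals only and 5 with upper-quartile scaling. Over all 102 genes of that level the numbers were 34 (33.3%), 53 and 24. Only Mir423, in an intron of Nsrp1, had a larger ratio than Mir149 in that set. The intronic genes as a class took similar shares in both animals, but a sum over many genes can even out differences of single ones. Mir149 was not alone in being uneven. Mir423 held 0.286 and 0.0847% of counted reads in animals 1 and 2. Mir23b, lower in animal 1, held 0.999 and 1.59% (log2 ratio -0.87 after TMM). Both were named after their values were seen. The messenger RNA of Gpc1 was not measured in these libraries of short RNA.

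Marker microRNAs of other cell types were set beside the difference in Mir149. In bulk tissue, more cells of a type and more RNA per cell cannot be told apart. The marker lists were summed in each animal, and 3 of the 9 had a log2 ratio above 0 after TMM. The endothelial list held 2.89% of counted reads in animal 1 and 0.826% in animal 2, a log2 ratio of 1.60. Mir126a carried all of it. Mir126b, the other listed marker, is annotated within the span of the Mir126a hairpin and had 0 reads in both, so the list rests on that locus. The mesenchymal and meningeal list held 0.0278 and 0.00538%, a log2 ratio of 2.16, nearly all from Mir214 (1044 and 135 reads), while Mir199b had 8 and 5 reads (-0.12), Mir199a-2 had 5 and 0, and Mir199a-1 was at 0 in both. The erythroid list held 0.00780 and 0.00465%, a log2 ratio of 0.54, with Mir451a and Mir144, made from the same red blood cell transcript, past 2-fold and Mir486 at -0.20.

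The other 6 lists had ratios below 0. The neuron list, with 13 of 13 members measured, held 4.26 and 4.23% of reads, a log2 ratio of -0.20 after TMM and 0.01 with library totals only. The oligodendrocyte list held 0.119 and 0.164% (-0.67), and the list of smooth muscle and pericytes held 0.315 and 0.452% (-0.73). Microglia and blood genes held 0.159 and 0.194% (-0.49), choroid plexus and ciliated cell genes 0.111 and 0.150% (-0.64), and epithelial genes 0.0295 and 0.0388% (-0.60). In the choroid plexus and ciliated cell list, Mir204 held most of the reads (3293 and 1956 in animals 1 and 2) and was level, at 7.1e-05. Mir34c (391 and 1173 reads) was at -2.34 and Mir449a (519 and 746) at -1.27. The scarce Mir34b and Mir211 were at -2.50 and -2.63. Mir149 was thus higher in the animal with larger shares of Mir126a, Mir214, Mir451a and Mir144, each the bulk or a part of its list. Mir486, the most abundant member of the erythroid list, was near level, and the other members of the mesenchymal and meningeal list were scarce or at 0. The neuron list was nearly level, and the list of smooth muscle and pericytes was lower in that animal. Members past 2-fold higher in animal 1 also stood in lists below 0. Among genes with at least 10 reads summed, the neuron list had 1 of 11 (Mir129-2, log2 ratio 1.34). The oligodendrocyte list had 1 of 3 (Mir219a-1, 3.35) and the epithelial list 1 of 5 (Mir200b, 1.60). Listed genes with further copies, such as those of Mir124a, Mir128 and Mir199a, lose reads that fit several positions. Their low counts and the levels of their lists are therefore uncertain. Reads mapped to several positions were 42.7 and 40.4% of all reads in animals 1 and 2, and unmapped reads 17.9 and 23.5%. The part of any of these in the Mir149 difference was not tested.

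**Figure D4:**
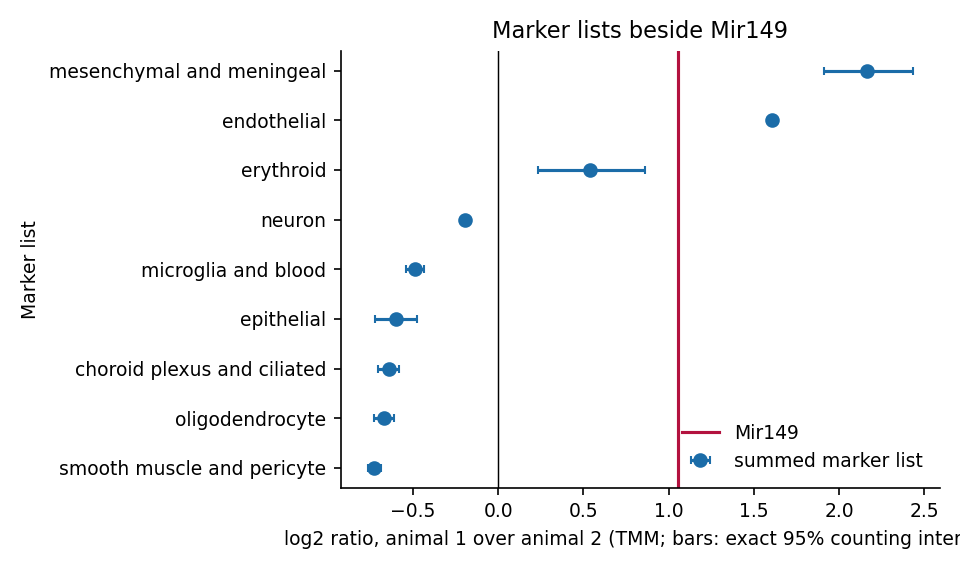
The x axis is the log2 ratio of animal 1 over animal 2 after TMM; points are marker lists summed over their members, bars are exact 95% counting intervals, and the red line is Mir149. The mesenchymal and endothelial lists lie to the right of Mir149 at 2.16 and 1.60, and 6 lists lie below 0.

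Among 1738 mature mouse arms in the RefSeq table, no other arm had the seed of miR-149-5p. Over bases 2 to 7, 4 other genes matched it, and all were scarce. Mir3064 had 72 and 70 reads in animals 1 and 2, Mir7688 had 68 and 27, Mir3085 had 58 and 23 and Mir7652 had 1 and 1. Their arms are shown, with the shared bases in capitals, because they part from miR-149-5p at base 8, the last of the seed.
mmu-miR-3064-5p: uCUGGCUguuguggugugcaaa
mmu-miR-3085-3p: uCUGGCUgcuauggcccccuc
mmu-miR-7652-3p: uCUGGCUuuccuguggcuucu
mmu-miR-7688-3p: uCUGGCUuaugccuagcuuuc

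The seed of miR-149-3p was shared by arms of 4 other genes, each in an intron of a protein-coding gene. Mir7016, in Tmem39b on chromosome 4 (129684546 to 129684566), had 16 and 14 reads. Mir1943, in Tmem184b on chromosome 15 (79375271 to 79375293), had 10 and 4. The arm of miR-6967-5p is annotated to Gm27775 in Kifc5b and Gm27740 in Kifc1, both on chromosome 17, and each had 0 reads in both animals. Their arms, with the seed in capitals, show that the likeness to miR-149-3p thins out after the seed.
mmu-miR-7016-5p: cAGGGAGGggagcgagaguag
mmu-miR-1943-5p: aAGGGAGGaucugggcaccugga
mmu-miR-6967-5p: cAGGGAGGgauaaagaccagu

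Together these 4 genes held 26 reads in animal 1 and 18 in animal 2. Since the arms of Mir149 were counted together, how its 3′ seed compares with theirs in reads is not known here. A read of miR-6967-5p fits both of its copies, and reads that fit several positions stand apart from the genes, so its 0 is uncertain. Neither arm of Mir149 was found in another of the 2202 hairpins, nor was any run of 15 of its bases. Neither arm was found in any of the other transcripts among the 141767 of the annotation. Introns and intergenic sequence were not searched.

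The hairpin of Mir149 is rich in G and C. Its GC content is 68.2%, against a median of 51.4% over the 307 genes with at least 10 CPM in both libraries, and 60.9 and 81.8% in the 5′ and 3′ arms. Of all 2202 hairpins 96 (4.36%) had at least this GC content, Mir149 included, as did 10 of the 307 and 3 of the 102 genes of at least 1000 mean CPM. The other 2 of those 3 are Mir770 (70.2%) and Mir874 (68.4%), the latter chosen for naming after its values were seen. Among the 307, the highest were Gm23450 (79.1%), Mir8112 (78.6%), Mir7666 (74.5%), Mir3072 (72.3%) and Mir770. Mir770 is an imprinted microRNA in an exon of Meg3. The cut-off used here is the GC content of Mir149 itself. Mir92b (67.5%), Mir760 (67.2%), Mir99b (67.1%) and Mir328 (67.0%), also of at least 1000 mean CPM, lay just below it.

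Folded with RNAfold, the hairpin had a minimum free energy of -36.7 kcal/mol, or -0.56 per base, and 144 of the 2202 hairpins (6.54%) were lower per base. The predicted fold paired 50 of the 66 bases, and 17 of the 23 bases of the 5′ arm paired with the 3′ arm. The seed of the 3′ arm was fully paired, 7 of 7 bases, and that of the 5′ arm at 6 of 7.

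The 3′ side of the hairpin holds 4 runs of 3 or more G, parted by 1 to 7 bases of any kind, searched on the strand of the RNA only. Such a pattern was found in 25 of the 2202 hairpins (1.14%) and in 5 of the 307 genes of at least 10 CPM. These 5 were Mir149, Mir328, Mir92b, Mir1249 and Mir3547, with log2 ratios of 1.06, 0.62, 0.80, 0.61 and 2.00. All 5 were higher in animal 1 under TMM, library totals, DESeq2 size factors and upper-quartile scaling. These scalings shift every gene alike, so they are not separate observations, and Mir149 itself was chosen with its ratio known. Of the other 302 genes, 145 were higher in animal 1 under TMM and 187 with library totals. With DESeq2 size factors 129 were higher, and with upper-quartile scaling 107. Scarcer genes with the pattern and at least 10 reads summed were mixed under TMM. Mir6538 (24 and 18 reads in animals 1 and 2) was at -0.35 and Gm26117 (15 and 15) at -0.75. Mir1982, Mir3100, Mir6953, Mir5126 and Mir7118 were above 0. The pattern was looked for with the sequence and the ratios known, so this is a description of these genes and was not tested.

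Over the 531 genes, hairpin GC content and the log2 ratio had a Pearson's r of 0.17 and a Spearman's rho of 0.20, and over the 102 genes of at least 1000 mean CPM 0.19 and 0.21. These run across genes that share both libraries and their scaling, and they are weak. Of the 102 genes, the 26 with the highest GC content, from 58.2 to 70.2%, included 13 with a ratio above 0 after TMM, 18 with library totals only and 12 with upper-quartile scaling, and their median log2 ratio after TMM was -0.01. The 25 from 53.2 to 58.2% included 6, 9 and 3, with a median of -0.31. The 25 from 47.6 to 52.9% included 9, 13 and 4, with a median of -0.19. The 26 with the lowest, from 32.4 to 47.6%, included 6, 13 and 5, with a median of -0.20. Over all 102 genes the numbers were 34 (33.3%), 53 and 24. The part of GC content in the Mir149 difference was not tested.

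**Figure D5:**
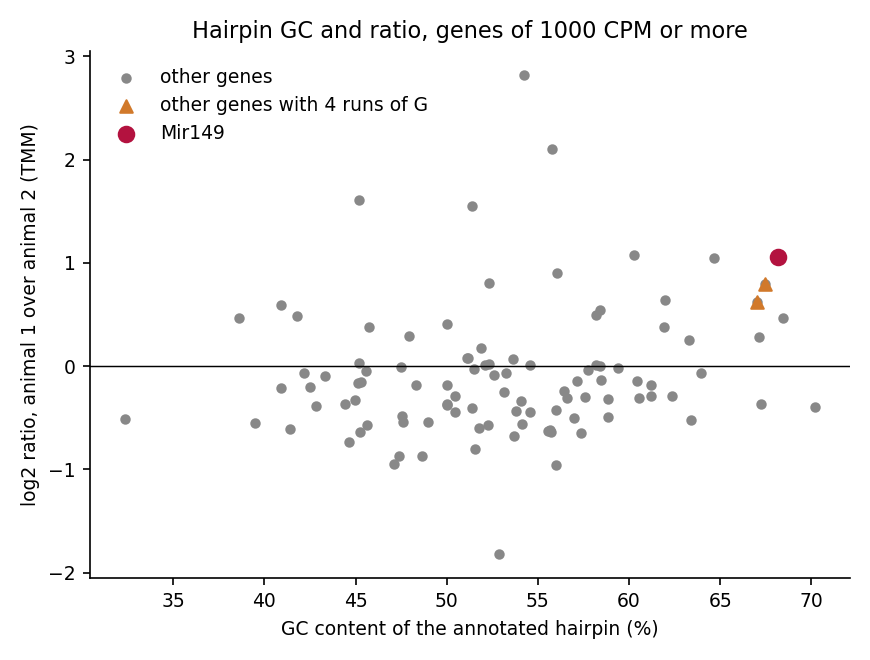
GC content of the annotated hairpin in percent is on the x axis and the log2 ratio of animal 1 over animal 2 after TMM on the y axis; each point is 1 of the 102 genes of at least 1000 mean CPM, and triangles mark Mir328 and Mir92b, the other genes there with 4 runs of G. Mir149, in red, lies at 68.2% and 1.06, at the GC-rich edge, and the points as a whole show little slope.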

How the data were processed

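The deposited tables hold raw read counts per microRNA gene, 1 table per library. Per the file headers and notes beside them, the build was mm10 and the annotation GENCODE M21; the sources used here name neither the aligner nor the counter. Each table has count columns for both strands, the own strand and the opposite strand, and the own-strand column was used. The 4 rows that name no gene (unmapped, several positions, no gene, ambiguous) held 66.5 and 69.6% of reads in animals 1 and 2 and were left out. All 2202 gene IDs matched M21 symbols.

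From the counts, CPM and shares with exact Clopper-Pearson 95% intervals were computed. TMM factors (1.07 and 0.932) came from edgeR 4.0.16 in R 4.3.3, on 531 genes with at least 10 reads summed. Log2 ratios had 0.5 added to each count and exact conditional intervals. The ratio procedure was tested on simulated data. Alternatives used DESeq2 1.42.0; Python 3.11.15, scipy 1.17.1 and RNAfold 2.7.2 served for the rest. Hairpin features came from M21 transcripts and arms from RefSeq (GRCm38.p6). Mir149, the lists and the comparisons were chosen with earlier results of these data known. Named genes were the 5 neighbours on each side by mean CPM, the 5 closest ratios above 1000 mean CPM, genes sharing a seed, the nearest and the 5 most abundant microRNA genes of chromosome 1, the 5 detected hairpins of highest GC content and up to 4 members of each marker list. The files show no molecular identifiers, and every interval or floor covers only the error of counting.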

Additional observations from a re-analysis of the deposited data

How the results depend on the processing

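The direction of the Mir149 difference, higher in animal 1, was the same under each scaling tried, and its size was not. The log2 ratio of 1.06 became 1.26 with library totals only, 1.00 with DESeq2 size factors, 0.84 with upper-quartile scaling and 1.10 when TMM used all genes with a count; it was 1.07 in the unstranded column and 1.06 with 1 in place of 0.5 added. Against TMM these scalings shift every gene alike, library totals by 0.20 and upper quartile by -0.22, so a 2-fold mark is not a firm one for Mir149. The mean share of 1.88% became 0.613% of all reads, unmapped and multiply mapped ones included, and 3.58% of counted reads without the 10 other most abundant genes, both by construction of the denominator, and 2.03% in the unstranded column. With either animal left out the share ran from 1.11 to 2.65% and the rank from 10 to 19. The rank of 11 was 10 in the unstranded column and 12 with copies of the same mature sequence summed. That sum lacks the reads that fit several positions, so it cannot show how genes with several copies rank against Mir149. No paired analysis was possible because there is 1 group. With 100883 and 28838 reads, depth does not limit these values. The number of animals, the choice of scaling and the reads not counted to genes do.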
